A study of Mus musculus with 6 samples.

Results

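The genes described here are those of the translation initiation factors, taken as all protein-coding RefSeq genes of the mouse assembly GRCm38 whose symbol starts with Eif and a digit from 1 to 6. There are 56 of them among 21774 protein-coding genes. A further 12 Eif symbols are not protein-coding, 11 of them pseudogenes, and were left out. For each gene the distance was measured from its annotated transcription start sites (TSSs) to the peaks of ATAC-seq, an assay that marks open chromatin by the insertions of a transposase.

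The series holds 6 ATAC-seq samples of mouse embryonic stem cells (mESCs) in 3 groups of 2. The peaks come from the untreated V6.5 mESCs, a line grown on irradiated embryonic fibroblasts with leukaemia inhibiting factor, and the study gives them as a single list for both replicates. The study's culture methods for mESCs name CHIR99021 and PD0325901 besides leukaemia inhibiting factor and mention no fibroblasts. ZBTB21-degron mESCs at 0 h and at 6 h, in which the ZBTB21 protein is made degradable by an added tag, were not analysed here beyond this description. The labels of all 6 samples share a treatment text on doxycycline and degron cells, while the untreated samples carry the label of V6.5 cells with no treatment.

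The list holds 41014 peaks in mm10 coordinates, the name that UCSC gives to GRCm38, with a median width of 547 bp. Each peak carries a score from 540 to 953 with a median of 696, in which a higher number stands for a peak seen more alike in both replicates if the column is the score of the irreproducible discovery rate (IDR) software, as its lowest value points to. There are no values per replicate and the depth is unknown, so no spread between replicates and no test over samples could be given. All shares below are descriptions with Wilson 95% confidence intervals that cover counting error over genes only. A gene without a peak is a gene for which the list holds none near its start, and accessibility below the list's threshold was not analysed here. In a bulk culture, fewer cells with an open site and less cutting per cell cannot be told apart. Of 10 pluripotency markers, 4 had a peak within 1 kb of a TSS, among them Pou5f1 with a score of 861 and Nanog with 805, and 7 had one within 5 kb, where the shares of all protein-coding genes were 29.9% and 41%. Sox2 had its nearest peak at 10004 bp and Klf4 at 31129 bp. Of 10 fibroblast markers of the feeder layer, 3 had a peak within 1 kb, namely Thy1 (829), Pdgfra (687) and Pdgfrb (602), a share near that of all genes. The part of feeder cells in the list was not tested.

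Translation initiation brings the small ribosomal subunit, the initiator tRNA and the mRNA together at the start codon. The factor eIF2 carries the initiator tRNA, eIF2B recharges eIF2 with GTP, eIF3 is the large scaffold on the small subunit, and the cap-binding factors eIF4E, eIF4G and eIF4A recruit and unwind the mRNA. Kinases that phosphorylate eIF2 and proteins that bind eIF4E turn the process down under stress or when growth signals fade. Most of these factors are needed in every cell, and their promoters are commonly of the broad, CpG-rich kind.

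Of the 56 Eif genes, 25 had an ATAC-seq peak no farther than 1 kb from a TSS (44.6%, 32.4 to 57.6%), against 6510 of all protein-coding genes (29.9%). In 22 Eif genes (39.3%, 27.6 to 52.4%) the peak covered a TSS, where 26% of all genes had such a peak. Widening the distance to 5 kb added no further Eif gene, so the count stayed at 25 (44.6%), while the share of all genes went up to 41%. A nearest peak between 1 and 5 kb was thus found for 0 of the 56 Eif genes, for which the Wilson upper limit is 6.42%, and for 2409 of all genes (11.1%). This 0 depends on where the starts of Eif4a3 are placed. Its nearest peak lies at 5034 bp and falls within 5 kb of a start in the GENCODE M21 annotation. There 26 of 55 Eif genes (47.3%) had a peak within 5 kb, against 39.2% of all genes.

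The widest gaps inside 1 kb were those of Eif5a at 590 bp, Eif1a at 578 bp and Eif5b at 539 bp. The nearest genes outside 5 kb were Eif4a3 at 5034 bp, Eif4b at 5352 bp and Eif3g at 5988 bp, followed by Eif4ebp1 at 6391 bp and Eif4a2 at 6490 bp. On the map of peaks around the TSSs, peaks between 1 and 5 kb occur only beside a promoter peak, at Eif3k, Eif3l and Eif5a.

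**Figure D1:**
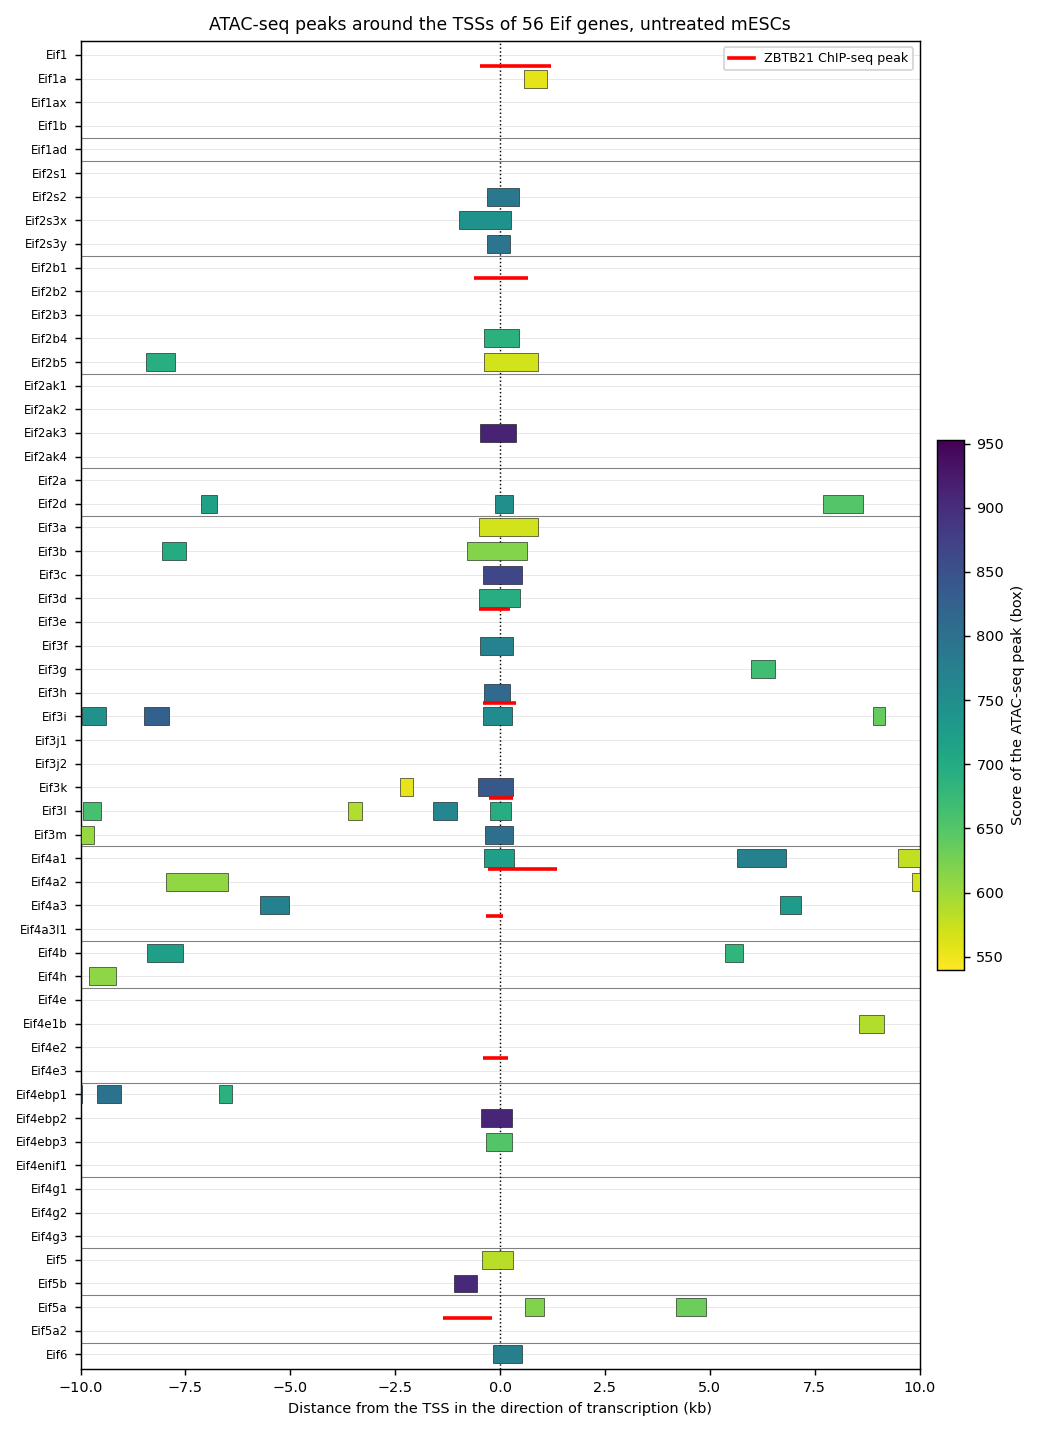
ATAC-seq peaks of untreated mESCs (boxes, coloured by score) and ZBTB21 ChIP-seq peaks (red lines at the lower edge of a gene's row) within 10 kb of the TSS nearest to a peak in each of the 56 Eif genes, in kb along the direction of transcription, with horizontal lines between role groups. Boxes stand over or next to the TSS in 25 genes, and eIF4E and eIF4G genes have none there.

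Farther out, 24 Eif genes (42.9%, 30.8 to 55.9%) had their nearest peak beyond 10 kb, as did 47.5% of all genes. Beyond 50 kb lay the nearest peak of 7 Eif genes (12.5%, 6.19 to 23.6%) and of 21% of all genes. The farthest were Eif4enif1 at 89796 bp, Eif1ax at 86900 bp and Eif4a3l1 at 79875 bp. The median distance among the 31 Eif genes without a promoter peak was 19256 bp, with quartiles at 11790 and 41645 bp. Among the 15264 such genes in all it was 19604 bp, with quartiles at 7491 and 68515 bp, so that the medians were close and the Eif genes were less spread out.

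**Figure D2:**
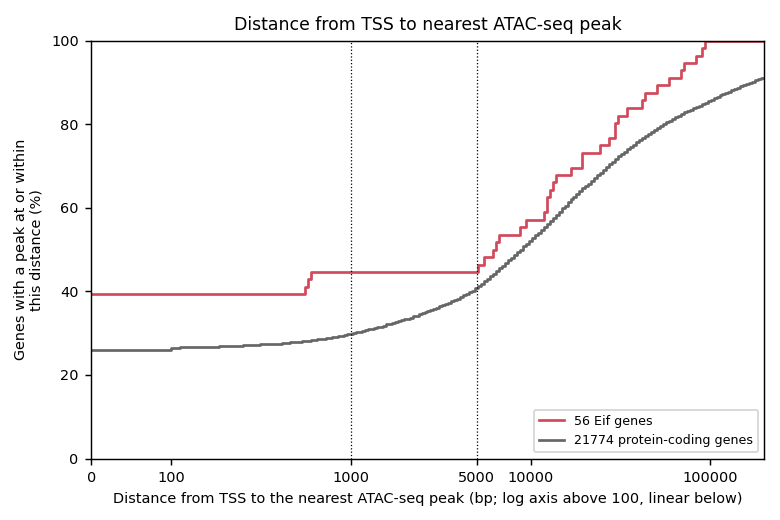
Percentage of genes whose nearest ATAC-seq peak lies at or within a given distance of a TSS (bp, log axis above 100 and linear below), for the 56 Eif genes and for 21774 protein-coding genes, with dotted lines at 1000 and 5000 bp. The line of the Eif genes is flat at 44.6% between both dotted lines, while that of all genes goes from 29.9% to 41%.

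By group of factors, the counts of genes with a promoter peak are set beside the 29.9% of all protein-coding genes. Of the eIF3 subunits, 10 of 14 had one, and of the 4 genes of eIF2 subunits, 3 had one. Of the 13 genes of the cap-binding and unwinding factors eIF4A, eIF4B, eIF4H, eIF4E and eIF4G, only Eif4a1 had one (1 of 13). By symbol, the count was 1 of 5 for Eif1, 7 of 15 for Eif2, 10 of 14 for Eif3, 3 of 17 for Eif4, 3 of 4 for Eif5 and 1 of 1 for Eif6. These counts are small, the groups were drawn up with the peaks of these genes known, and no test of the groups was made. The 13 genes also pool several role groups. A difference between groups is therefore not shown.

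**Figure D3:**
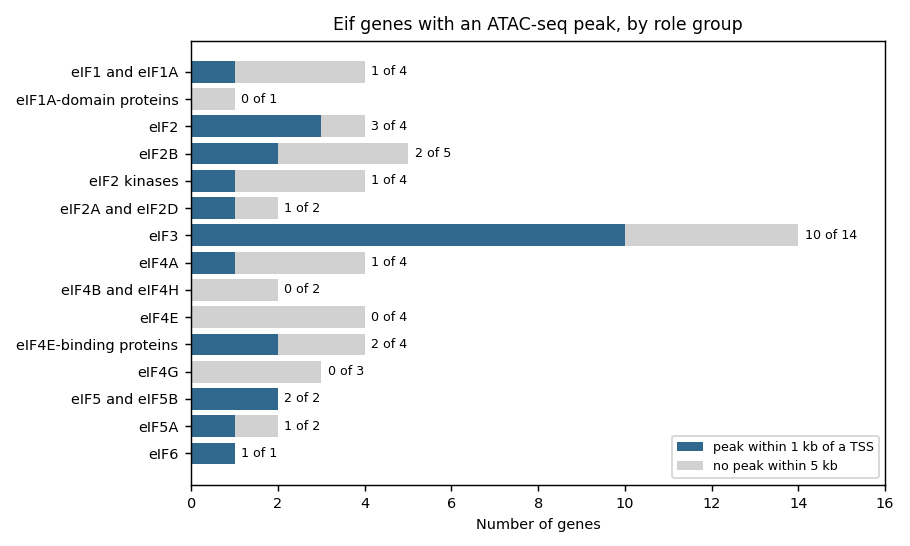
Number of Eif genes in each of 15 role groups, split into those with a peak within 1 kb of a TSS (blue) and those with no peak within 5 kb (grey). The eIF3 group has 10 of 14 with a peak, and the eIF4E and eIF4G groups have 0 of 4 and 0 of 3.

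The eIF3 subunits form the largest group. The scores of the best peak within 1 kb were 865 for Eif3c, a subunit of the structural core, and 841 for Eif3k and 812 for Eif3h, further subunits of the complex. They were followed by Eif3m at 804, Eif3f at 772 and Eif3i at 756. Lower scores were found for Eif3l at 696 and Eif3d at 695, a subunit that can bind the cap of selected mRNAs. Eif3b at 616 and Eif3a at 568, also core subunits, had the lowest. The median of the 10 genes was 764. Thus the eIF3 promoters covered a wide part of the score range although their products work in a single complex. The 4 genes without a promoter peak were Eif3g at 5988 bp, Eif3j2 at 12000 bp, Eif3e at 67520 bp and Eif3j1 at 69169 bp. Eif3j1 and Eif3j2 encode near-identical forms of the loosely bound subunit, and neither had a promoter peak. How reads shared by such copies were placed is not given in the sources used here. Eif3l was the Eif gene with the most peaks within 5 kb, 3 in number, and the best of these scored 764. With Eif3k and Eif5a, which had 2 each, it made up the 3 Eif genes (5.36%, 1.84 to 14.6%) with 2 or more peaks, against 10.8% of all genes.

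Of eIF2, which delivers the initiator tRNA, the beta subunit gene Eif2s2 scored 787, and both genes of the gamma subunit had peaks, Eif2s3x on X with 742 and Eif2s3y on Y with 792. The 3 scores lie close together, though the X-linked peak was 1235 bp wide and the Y-linked peak 552 bp. Eif2s1, the gene of the alpha subunit that the stress kinases phosphorylate, had its nearest peak at 28967 bp, near Plek2. Of the exchange factor eIF2B, Eif2b4 (delta subunit) had a peak that scored 689 and Eif2b5 (the catalytic epsilon subunit) a peak that scored 569. Eif2b3 at 13014 bp, Eif2b1 at 19256 bp and Eif2b2 at 41847 bp had none. Of the 4 eIF2 kinases, only Eif2ak3 (PERK, the sensor of the unfolded protein response) had a promoter peak, and its score of 913 was the highest of all Eif genes. The heme-regulated kinase Eif2ak1 had its nearest peak at 56735 bp, the amino acid sensor Eif2ak4 (GCN2) at 41443 bp and the double-stranded RNA sensor Eif2ak2 (PKR) at 12416 bp. Eif2d, which can deliver tRNA without eIF2, had a peak with a score of 747, and Eif2a had its nearest peak at 13715 bp.

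Among the cap-binding factors, the helicase gene Eif4a1 had a peak with a score of 722. Its relative Eif4a2 had none within 6490 bp, and Eif4a3, whose product sits in the exon junction complex, none within 5034 bp. The helicase partners Eif4b and Eif4h had theirs at 5352 and 9156 bp. The cap-binding genes Eif4e1b (8549 bp), Eif4e2 (11850 bp), Eif4e3 (18877 bp) and Eif4e (50334 bp) and the scaffold genes Eif4g3 (16275 bp), Eif4g1 (30092 bp) and Eif4g2 (33490 bp) all lacked a promoter peak. Of the proteins that bind eIF4E and block it, Eif4ebp2 had the next highest score of the Eif genes at 909, Eif4ebp3 scored 652, and Eif4ebp1 had its nearest peak at 6391 bp. Eif4enif1, which carries eIF4E into the nucleus, had none within 89796 bp. Of the 3 Eif4 genes with a promoter peak, 2 thus encode inhibitors of eIF4E.

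The genes that act at start codon selection and subunit joining were mixed. Eif5, the GTPase activator of eIF2, had a peak with a score of 584, and Eif5b, which joins the subunits, a peak with a score of 906. The latter peak covers the TSS of Txndc9, a gene transcribed away from Eif5b with its start 716 bp upstream, and ends 539 bp before the Eif5b TSS. Eif6, which keeps free large subunits from joining, scored 776. Of the start codon factors, Eif1a scored 557, the lowest of the Eif genes, from a peak 578 bp downstream of its TSS. Eif1, Eif1b and Eif1ax had their nearest peaks at 11731, 26463 and 86900 bp, and Eif1ad, a protein with an eIF1A domain, at 28526 bp. Eif5a, a factor of elongation despite its name, scored 619 from an intronic peak, and its relative Eif5a2 had none within 23851 bp.

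In all, the best score within 1 kb had a median of 747 over the 25 Eif genes, with quartiles at 652 and 804. Over the 6510 genes with such a peak the median was 751, with quartiles at 655 and 839. The peaks of 15 of the 25 Eif genes scored above the list's median of 696, as did those of 4225 of the 6510 genes. At or above the 90th percentile of the list lay 5 Eif genes (Eif2ak3, Eif4ebp2, Eif5b, Eif3c and Eif3k), and below the 25th percentile lay 6 (Eif1a, Eif3a, Eif2b5, Eif5, Eif3b and Eif5a). These percentiles are those of all peaks in the list and not of promoter peaks. The matching counts over all genes with a promoter peak were not made, so the numbers do not show a high share. The nearest peak had a median width of 729 bp in the Eif genes and of 764 bp in all genes with a promoter peak. The widest were those of Eif3b (1415 bp), Eif3a (1412 bp), Eif2b5 (1278 bp) and Eif2s3x (1235 bp), and such widths above 1200 bp were found in 4 of the 25 Eif genes (16%, 6.4 to 34.7%) and in 11.7% of all genes with a promoter peak. Of these 4 wide peaks, those of Eif3b, Eif3a and Eif2b5 were among the 6 lowest in score, with 616, 568 and 569. Width and score were not compared over all genes with a promoter peak. Where the peak covered the TSS, its centre lay within 100 bp of the TSS in 17 of 22 genes, upstream in 14 and downstream in 8. The median offset was 67 bp and the largest 359 bp, that of Eif2s3x. The matching counts over all genes with a TSS inside a peak were not made, so no trait of Eif promoters is shown.

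**Figure D4:**
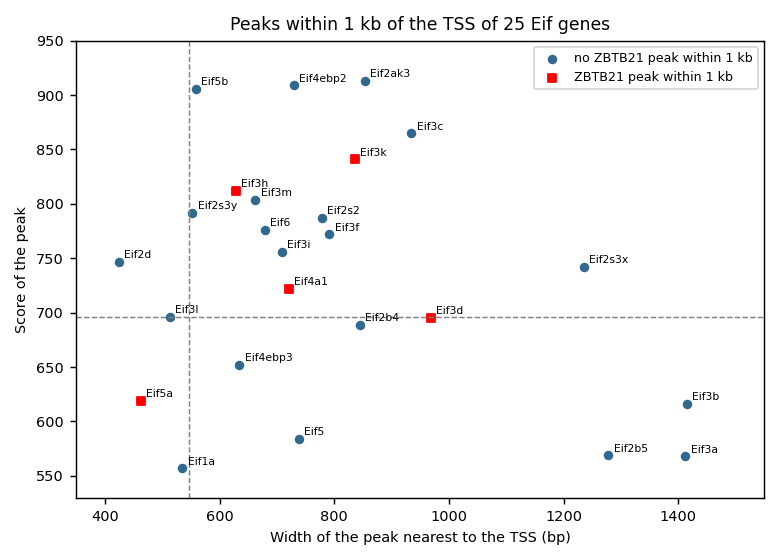
Score against width (bp) of the ATAC-seq peak nearest to the TSS for the 25 Eif genes with a peak within 1 kb, with dashed lines at the medians of the whole list (score 696, width 547 bp). Red squares have a ZBTB21 peak within 1 kb, and Eif3b, Eif3a and Eif2b5 are wide with scores of 616, 568 and 569.

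Several Eif genes share their start region with a neighbour. In 13 of the 56, another gene starts within 1 kb upstream on the other strand, a share of 23.2% (14.1 to 35.8%) against 17.9% of all protein-coding genes. Of these 13, 6 had a promoter peak (46.2%, 23.2 to 70.9%), against 43.3% of all genes with such a neighbour. Of the 43 Eif genes with no such neighbour, 19 had one (44.2%, 30.4 to 58.9%), against 27% of all such genes. The 6 pairs with a peak were Eif1a with Tmed7, Eif2b4 with Snx17, Eif3i with Tmem234, Eif3k with Map4k1, Eif3m with Gm38521 and Eif5b with Txndc9. The closest starts without a peak were those of Eif2b1 and Gtf2h3, which lie 17 bp apart. A shared start region was therefore found on both sides, with a peak and without.

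Inside the gene body, 8 of the 31 Eif genes without a promoter peak held a peak (25.8%, 13.7 to 43.2%), near the 29.2% of all genes without a promoter peak. These were Eif2a (751), Eif2ak1 (693), Eif2ak4 (788), Eif4a3 (728), Eif4b (682), Eif4e2 (727, the best of 3), Eif4e3 (579) and Eif4g3 (761, the best of 3). The peaks of Eif2a, Eif2ak1, Eif4b and Eif4e3 lay in introns, and the best peaks of the other 4 genes overlapped an exon. The cap-binding gene Eif4e2 and the scaffold gene Eif4g3 each had internal peaks, the best of them above the list's median score.

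The study also lists 1827 ChIP-seq peaks of ZBTB21 in mESCs, a zinc finger protein with a BTB domain that it follows as a partner of cohesin. It used a GFP antibody in ZBTB21-degron mESCs, whose ZBTB21 carries a GFP tag. The ZBTB21 and ATAC-seq lists thus come from different cells, the latter from untreated V6.5 mESCs. A ZBTB21 peak lay within 1 kb of a TSS in 9 Eif genes (16.1%, 8.69 to 27.8%), against 6.17% of all protein-coding genes. Within 5 kb the same 9 genes were counted, against 7.05% of all. In each of the 9, the ZBTB21 peak covered a TSS. They were Eif1, Eif2b1, Eif3d, Eif3h, Eif3k, Eif4a1, Eif4a3, Eif4e2 and Eif5a. The lists of ATAC-seq and ZBTB21 peaks met at 5 Eif genes (8.93%, 3.87 to 19.3%), where 3.21% of all genes had both within 1 kb. In Eif3d, Eif3h, Eif3k and Eif4a1 the 2 peaks overlapped. In Eif5a they did not, as the ZBTB21 peak covers another of its 9 annotated TSSs and spans -1360 to -185 bp from the TSS nearest to the ATAC-seq peak, where minus stands for upstream. The other 4 genes, Eif1, Eif2b1, Eif4a3 and Eif4e2, had a ZBTB21 peak over the TSS and no ATAC-seq peak within 5 kb. The ZBTB21 peak at Eif1 was 1696 bp wide and that at Eif4a3 398 bp. Such starts were common, since of the 1344 genes with a ZBTB21 peak within 1 kb, 545 (40.6%) had no ATAC-seq peak within 5 kb and 699 (52%) had one within 1 kb.

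The promoter sequences of these genes are shown to set the starts with both peaks beside starts with a single kind of peak and with none. Each is the stretch that ends just before the TSS and that no RefSeq exon covers, read 5′ to 3′ on the strand of the gene from RefSeq's promoter table for GRCm38.p6. Capitals mark the motifs searched on both strands, which were CCGGAAG (ETS factors), GCCATNTT (YY1), the palindrome of NRF1, CCAAT (NF-Y), GGGCGG (SP factors) and TATAAA (the box read by the TATA-binding protein). None of these motifs holds another, and a match is a description of the letters and not a bound site.

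Eif3d, Eif3k, Eif4a1 and Eif5a carry both kinds of peak. Eif3d lies on chromosome 15 on the minus strand, with the stretch at chr15:77970825-77971074, an ATAC-seq peak at chr15:77970357-77971324 and a ZBTB21 peak at chr15:77970586-77971329. Eif3k is on chromosome 7 on the minus strand (chr7:28981891-28982049, up to the first exon of Map4k1), with its ATAC-seq peak at chr7:28981586-28982421. Eif4a1 is on chromosome 11 on the minus strand (chr11:69672424-69672673), with its ATAC-seq peak at chr11:69672082-69672802. The stretch of Eif5a (chr11:69920631-69920800, minus strand) is intronic for transcripts that start farther upstream. It lies in neither peak, as the ATAC-seq peak is at chr11:69919578-69920040 and the ZBTB21 peak at chr11:69920815-69921990. Its motifs are therefore not under a peak.
Eif3d: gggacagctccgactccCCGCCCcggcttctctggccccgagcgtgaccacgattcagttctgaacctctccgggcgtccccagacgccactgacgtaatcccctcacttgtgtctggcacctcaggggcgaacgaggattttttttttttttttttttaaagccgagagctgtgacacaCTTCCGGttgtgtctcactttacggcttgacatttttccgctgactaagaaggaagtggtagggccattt
Eif3k: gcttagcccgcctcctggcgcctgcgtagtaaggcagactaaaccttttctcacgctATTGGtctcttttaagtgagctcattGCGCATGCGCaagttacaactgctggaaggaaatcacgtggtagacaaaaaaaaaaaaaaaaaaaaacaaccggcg
Eif4a1: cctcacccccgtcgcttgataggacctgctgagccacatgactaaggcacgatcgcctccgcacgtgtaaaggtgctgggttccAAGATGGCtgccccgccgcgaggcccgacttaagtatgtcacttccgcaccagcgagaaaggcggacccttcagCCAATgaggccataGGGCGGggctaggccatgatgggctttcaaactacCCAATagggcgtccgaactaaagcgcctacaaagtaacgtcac
Eif5a: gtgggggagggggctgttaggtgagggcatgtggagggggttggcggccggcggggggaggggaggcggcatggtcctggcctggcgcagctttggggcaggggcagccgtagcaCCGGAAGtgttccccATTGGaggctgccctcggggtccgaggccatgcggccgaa
Eif3d and Eif5a each hold an ETS motif, 70 and 55 bases before the TSS, and Eif3k holds the only NRF1 motif of all Eif windows. Eif4a1 holds a YY1 motif and 2 CCAAT boxes. Eif3d and Eif4a1 also hold an SP motif each, and Eif3k and Eif5a a CCAAT box each.

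Eif2ak3, the gene with the highest score and no ZBTB21 peak within 1 kb, lies on chromosome 6 on the plus strand (stretch chr6:70844265-70844483, ATAC-seq peak chr6:70844005-70844857).
Eif2ak3: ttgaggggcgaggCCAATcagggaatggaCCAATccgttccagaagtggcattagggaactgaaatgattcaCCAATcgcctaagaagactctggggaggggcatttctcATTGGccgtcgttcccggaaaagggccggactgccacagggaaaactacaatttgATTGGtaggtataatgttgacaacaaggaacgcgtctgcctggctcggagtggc
In the full 250 bases before the start that RefSeq's table uses, the count of CCAAT boxes in either direction was 6, where 12 of 17492 promoters (0.0686%) have 6 or more, and 5 of them fall in the stretch shown. This feature was singled out after the sequence had been seen. No other Eif promoter with a window had more than 2.

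Eif4a3, with a ZBTB21 peak over its TSS and no ATAC-seq peak within 5 kb, and Eif4g1, with neither within 5 kb, are examples of starts without an ATAC-seq peak. Eif4a3 is on chromosome 11 on the minus strand (chr11:119300044-119300293) with the ZBTB21 peak at chr11:119299980-119300377, and Eif4g1 is on chromosome 16 on the plus strand (chr16:20672477-20672719).
Eif4a3: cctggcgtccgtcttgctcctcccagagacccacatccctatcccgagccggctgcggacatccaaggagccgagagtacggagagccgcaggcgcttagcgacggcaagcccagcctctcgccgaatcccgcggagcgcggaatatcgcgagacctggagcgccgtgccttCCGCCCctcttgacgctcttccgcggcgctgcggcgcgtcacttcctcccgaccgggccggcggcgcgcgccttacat
Eif4g1: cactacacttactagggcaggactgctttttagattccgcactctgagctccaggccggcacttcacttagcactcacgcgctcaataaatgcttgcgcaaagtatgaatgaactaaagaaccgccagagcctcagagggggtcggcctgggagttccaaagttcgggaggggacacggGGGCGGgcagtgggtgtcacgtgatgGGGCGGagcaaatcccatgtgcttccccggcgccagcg
Both hold SP motifs in this stretch and none of the other motifs. This does not hold for such starts in general, as 9 of the 24 Eif windows without a peak hold an ETS motif, 6 a CCAAT box and 3 a YY1 motif.

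A RefSeq promoter window, 250 bases before to 50 after a TSS, was matched for 44 of the 56 Eif genes. For an Eif gene the window nearest to the TSS closest to an ATAC-seq peak was taken. For all protein-coding genes it was the first listed window. Every comparison of Eif windows with all genes, here and elsewhere, thus sets windows chosen by different rules side by side, and the effect of this was not tested. Not matched were Eif1a, Eif2b3, Eif3e, Eif3h, Eif3i, Eif3j2, Eif4e1b, Eif4e3, Eif4ebp1, Eif4ebp3, Eif4g2 and Eif6. The ETS motif was found in 16 of the 44 windows (36.4%), against 11.9% of the windows of all protein-coding genes. The YY1 motif was found in 9 (20.5%), against 6.69%, and the SP motif in 31 (70.5%), against 46.3%. CCAAT was found in 34.1% and TATAAA in 9.09%, against 39% and 13.3% of all. Of the CpG-rich windows alone (a CpG ratio above 0.6 and a GC content above 50%), the ETS motif was in 15 of 35 Eif windows (42.9%) and in 20.2% of all. The YY1 motif was in 17.1% and 9.08% of them, and the SP motif in 80% and 76.9%. The ETS motif stood in 7 of the 20 windows with an ATAC-seq peak (35%) and in 9 of the 24 without (37.5%), so that it did not set these apart. Over all genes it stood in 17.8% of windows with a peak and in 9.36% of those without. The YY1 motif stood in 6 of 20 (30%) and in 3 of 24 (12.5%), against 8.38% and 5.96% over all genes. CCAAT stood in 9 of 20 (45%) and in 6 of 24 (25%), against 43.2% and 37.2%. These splits rest on few windows and were not tested.

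A TSS that begins with a C and goes on with at least 4 pyrimidines, the start of TOP mRNAs whose translation follows mTOR, was found for 2 of the 44 genes (4.55%), against 2.17% of all genes. The 20 bases around these TSSs are given, 10 on each side, with the pyrimidine run from the TSS in capitals (Eif2s3x at chrX:94212642-94212661 on the minus strand, Eif3f at chr7:108934405-108934424 on the plus strand).
Eif2s3x: gagcattttcCTTTTCTCTC
Eif3f: tctaggctctCTCTCTTTCT
Both genes had an ATAC-seq peak over the TSS, with scores of 742 and 772. The annotated TSS decides this feature to the base, and RefSeq's TSSs can be off by some bases.

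CpG-rich windows, with an observed-to-expected CpG ratio above 0.6 and a GC content above 50%, made up 35 of the 44 Eif windows (79.5%) and 45.5% of all. Among CpG-rich promoters a peak within 1 kb was found for 15 of 35 Eif genes (42.9%, 28 to 59.1%) and for 39.8% of all genes. Among the other promoters it was found for 5 of 9 Eif genes (55.6%, 26.7 to 81.1%) and for 22% of all. Of these 5, only Eif2b5 had a low CpG ratio (0.41). Eif3f (0.81), Eif2s3y (0.86), Eif3b (1.01) and Eif3k (1.03) missed the CpG-rich class by GC content alone. Within the CpG-rich class the share of Eif genes thus lay close to that of all genes, and the interval of the Eif share holds the latter. The median GC content was 56.8% in the 20 Eif windows with a peak and 63.8% in the 24 without. In all genes the order was the opposite, with 58.7% in windows with a peak and 54.3% in those without. Eif promoters at the upper end without a peak were those of Eif4enif1 (79%), Eif1b (78.3%), Eif1ax (78%) and Eif4h (76%), and at the lower end with a peak those of Eif3f (46%), Eif2s3y (46.7%), Eif3b (49%) and Eif3k (49.7%). The part of GC content in which promoters reached the list was not tested.

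**Figure D5:**
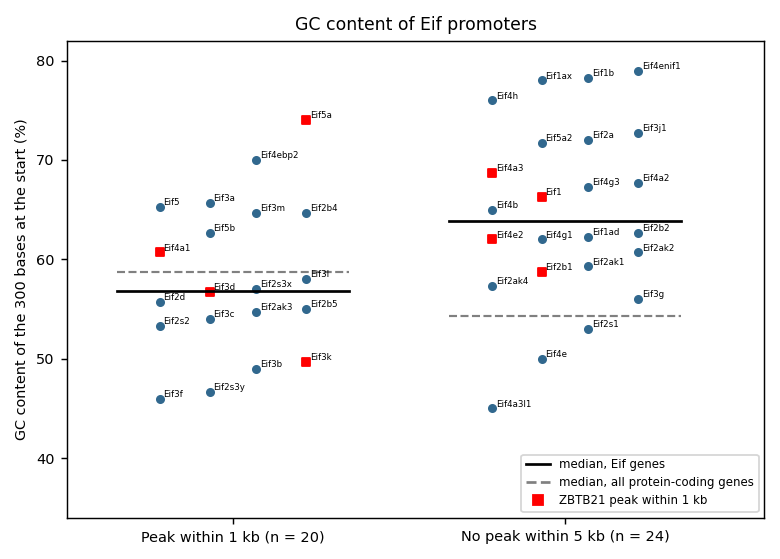
GC content (%) of the 300 bases around the TSS for 20 Eif genes with an ATAC-seq peak within 1 kb and 24 with none within 5 kb, with points spread sideways for legibility. Black lines are the Eif medians (56.8% and 63.8%), dashed lines the medians of all protein-coding genes (58.7% and 54.3%), and red squares have a ZBTB21 peak within 1 kb.

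The study sorts long chromatin loops into 500 ZBTB21-responsive and 500 less-responsive ones, found in ZBTB21-degron mESCs and not in the V6.5 cells of the ATAC-seq list. The former hold ZBTB21 peaks and cohesin peaks that go down on ZBTB21 loss, and the latter hold neither. Since signals at ATAC-seq peaks entered the ranking, loops and peaks are not independent. A TSS in the span of a responsive loop was found for 9 Eif genes (16.1%, 8.69 to 27.8%), against 15.3% of all genes. These were Eif2ak2, Eif2b3, Eif3d, Eif4a1, Eif4a3, Eif4a3l1, Eif4ebp1, Eif4g1 and Eif5a, with 3 loops over Eif3d, 2 over Eif2ak2 and 1 over each of the others. Of these 9, only Eif3d, Eif4a1 and Eif5a (3) had an ATAC-seq peak within 1 kb, and 33.7% of all genes in such loops had one. Only Eif4a3 had a TSS in a loop anchor (1.79%, 0.316 to 9.45%), against 1.99% of all. A less-responsive loop held 1 Eif gene, Eif2s1 (1.79%, 0.316 to 9.45%), against 5.84% of all, and 0 lay in an anchor of such a loop, against 0.666% of all. The remaining 46 Eif genes lay in neither class. Placement of the Eif genes in responsive loops was therefore near that of genes in general.

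Other genes of translation were counted in the same way, from lists drawn up by role with results of these data known. Of 9 elongation genes, 3 had a peak within 1 kb, namely Eefsec (726), Eef2k (691) and Eef1g (662), and 6 had one within 5 kb. The shares within 1 kb were 33.3% for elongation, 25% for termination and recycling and 26.3% for accessory factors, all near the 29.9% of all genes, and the share of all genes within 5 kb was 41%. Eef2 had its nearest peak at 1186 bp and Eef1a1, the main carrier of aminoacyl-tRNA, at 6840 bp. Of 4 genes of termination and recycling only Gspt2 had a peak (798). Of 19 accessory factors of initiation, 5 had a peak within 1 kb, with Dhx29 the highest at 837, and 7 had one within 5 kb. Pabpc1, the poly(A)-binding partner of eIF4G, had its nearest peak at 17730 bp.

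Of 15 genes that control initiation, 7 had a peak within 1 kb (46.7%, against 29.9% of all genes). Their scores ran from 773 to 895 with a median of 864. In the mTOR pathway they were 895 for Rps6kb1, 888 for Rptor, 871 for Rps6, 823 for Mtor and 804 for Rps6kb2. Akt1s1, Tsc2, Tsc1 and Rheb of the same pathway had no promoter peak, with their nearest at 6433, 11594, 18052 and 20586 bp. Ppp1r15a and Ppp1r15b, which recruit the phosphatase of eIF2, scored 864 and 773. Of the stress response genes downstream of the eIF2 kinases, Atf4 had its nearest peak at 2429 bp and Ddit3 at 1170 bp. ZBTB21 peaks lay within 1 kb of 7 of these 15 genes, of 4 of the 19 accessory genes, of 2 of the 4 termination genes and of 0 of the 9 elongation genes, against 6.17% of all genes. Every control gene with a promoter peak scored above the Eif median of 747. As this list too was drawn up with results of these data known, these counts and scores show no contrast with the Eif genes.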

How the data were processed

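ATAC-seq peaks of untreated V6.5 mESCs (2 replicates) were taken from the single list the authors deposited, which gives mm10 coordinates and a score per peak and no value per replicate. The submitters' processing notes name cutadapt 2.6, Bowtie2 2.3.5.1 and MACS2 2.1.1. How ATAC-seq peaks were called, and whether cut sites were shifted for Tn5, is not given in the sources used here. The lowest score in the deposited list, 540, is what the scaled score of the IDR software comes to at the limit that the study set for its ChIP-seq peaks.

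Distances were measured from 58496 TSSs of all RefSeq transcripts of protein-coding genes on GRCm38.p6 to the nearest base of a peak, with 0 inside it. The score is that of the best peak within 1 kb. ZBTB21 peaks and loops are positions that the study lists, and loops span the outer edges of their anchors. All Eif genes are named by role. Sequences are shown for the gene with the highest score, for those with both peaks (except Eif3h, which has no window in RefSeq's promoter table) and for a core factor without a peak, and that of Eif4a3 and the start windows were added after values were seen. Members, groups, gene lists and motifs were chosen with earlier results of these data known. Genes are not replicates, so shares carry Wilson 95% intervals and no test. The counting was checked on simulated gene sets. Alternatives were the distance, the transcripts, the peak centre, autosomes, higher-scored peaks, loop anchors and another annotation. Python 3.11.15, numpy 2.4.6, pandas 2.3.3, scipy 1.17.1 and matplotlib 3.10.9 were used.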

Additional observations from a re-analysis of the deposited data

How the results depend on the processing

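The alternatives gave 21 values for 6 results, of which 15 were labelled as the same and 6 as moved. For the shares of genes with a peak, the same means inside the Wilson interval of the main value. For the median score it means an equal value, and for the ZBTB21 and loop counts a value within a fixed factor of the main count. The labels of these latter results thus rest on no error. Using only the peaks that score above the median leaves fewer peaks by construction. The share of Eif genes with a peak within 1 kb was then 26.8% (15 genes, 17 to 39.6%), against 19.4% of all genes. Within 5 kb it was 28.6% (16 genes, 18.4 to 41.5%), against 26.9%. Both intervals hold the share of all genes. The median score was 792, against 813 in all genes. The best peak within 5 kb in place of 1 kb gave a median score of 756, against 746 in all genes. In loop anchors only, the number of Eif genes was 1 for responsive and 0 for less-responsive loops. The 10 genes lost with higher-scored peaks were Eif1a, Eif2b4, Eif2b5, Eif3a, Eif3b, Eif3d, Eif3l, Eif4ebp3, Eif5 and Eif5a. At 500 bp the share was 39.3%, without Eif1a, Eif5a and Eif5b, against 27.9% of all genes. At 2.5 kb it was 44.6%, against 34.9%, and on autosomes it was 43.4%, against 30.5%. The Eif intervals at 500 bp (27.6 to 52.4%) and at 2.5 kb (32.4 to 57.6%) hold the share of all genes. That on autosomes (31 to 56.7%) does not. With curated transcripts only, the same 25 genes were counted, and the share of all genes was 28.5%. GENCODE M21 basic transcripts, an alternative chosen after seeing the data, lack Eif4a3l1 as a protein-coding gene. With them the same 25 genes were counted within 1 kb (45.5%, 33 to 58.5%), against 28.3% of all genes. Eif4a3 was added within 5 kb (47.3%, 34.7 to 60.2%), against 39.2% of all genes. No paired analysis was possible because the list pools both replicates, and for the same reason no replicate could be left out. Without depth per library, the number of peaks missed could not be estimated.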
